A study of Mus musculus with 6 samples.

Results

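The listed transcripts of the cAMP and S6 kinase signalling genes Gnas, Creb1, Adcy3 and Rps6kb2 were examined in testis RNA of C57BL/6 mice fed high-fat food or normal food for 8 weeks. They were taken from the authors' deposited comparison table as the transcripts that carry these 4 gene symbols or share a locus with one that does. This gave 4 transcripts at 4 loci, of 831 transcripts in the table, and each was the only listed transcript of its gene. The high-fat group held libraries 10, 11 and 12 and the normal-diet group held libraries 7, 8 and 9, each a strand-specific RNA-seq library of whole testis. The labels give neither the age of the mice nor how libraries map to animals, so the spread between libraries may be partly technical.

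The table holds only transcripts that the authors called. These are 831 of the 95751 transcripts tested (0.868%), at a threshold of 0.05 on the adjusted p. The high-fat mean was the higher in 460 of them, or 0.480% of those tested. The 4 transcripts were therefore selected by this same difference between the diets. In the authors' deposited table their adjusted p was 7.53e-20 for Gnas, 8.74e-11 for Creb1, 0.00953 for Rps6kb2 and 0.0239 for Adcy3, and the highest listed was 0.0497. Their levels are described below without a test. Counts over the whole table total 427777 to 490603 in the high-fat libraries and 362790 to 402866 in the normal-diet libraries. The depth of a whole library is not given in the sources used here.

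Hormone receptors on the cell surface activate the stimulatory G protein, whose alpha subunit is encoded by Gnas. This subunit turns on adenylyl cyclases such as Adcy3, which make cyclic AMP; protein kinase A is then released and phosphorylates transcription factors of the CREB family, among them Creb1. In testis the receptors for follicle-stimulating hormone and luteinizing hormone signal through this route in Sertoli and Leydig cells. Rps6kb2 encodes ribosomal protein S6 kinase 2, which acts downstream of the growth-sensing kinase complex mTORC1.

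All 4 listed transcripts were marked as not canonical in the table, as were 319 of the 433 listed transcripts with an annotated identifier. Those of Gnas, Creb1 and Adcy3 are classed as protein-coding, and that of Rps6kb2 as a target of nonsense-mediated decay, the pathway that degrades messages with an early stop codon. By the APPRIS tags of GENCODE M21, which rank isoforms by their protein, the Gnas and Creb1 transcripts are nonetheless principal isoforms, as are the isoforms they are compared with below, and the Adcy3 and Rps6kb2 transcripts are not. The structures use GENCODE M21 on GRCm38, the build named in the submitters' processing notes. The ends of each GENCODE model were moved to the deposited ends, which gave the deposited length and exon number for all 431 listed transcripts that GENCODE holds.

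The Gnas transcript, ENSMUST00000087871 or Gnas-202, runs on the plus strand of chromosome 2 from 174327768 to 174346744, with 13 exons and 3903 bases. Its coding sequence has 394 codons and is identical to that of Gnas-208, a further principal isoform that encodes the alpha subunit. What sets it apart is the 5′ end. It starts at an upstream first exon of 174 bases, in the interval where the alternative first exon known as exon 1A lies and upstream of position 174330006, where RefSeq starts the ordinary alpha subunit message. Gnas is imprinted in mice, and exon 1A transcripts come from the paternal allele. The second exon of Gnas-202 then runs through sequence that Gnas-208 lacks into the exon with the start codon, so that 2362 bases precede the start codon. Of its bases, 1293 (33.1%) lay in none of the other 23 annotated Gnas isoforms, all of them before the start codon. The 250 bases upstream of its start, chr2:174327518-174327767 on the plus strand, are shown because this start separates the transcript from the ordinary message. The capitals mark the reverse complement of TGACG, the half-site of the CREB motif.
Gnas-202 upstream: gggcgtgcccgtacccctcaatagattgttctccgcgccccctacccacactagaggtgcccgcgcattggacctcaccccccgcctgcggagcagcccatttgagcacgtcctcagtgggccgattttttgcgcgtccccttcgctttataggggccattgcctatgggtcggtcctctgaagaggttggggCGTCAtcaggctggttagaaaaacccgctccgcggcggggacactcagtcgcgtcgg
This stretch, from RefSeq on GRCm38.p6, is 63.2% G or C. Gnas-202 also holds the 45-base coding exon that separates the long from the short form of the alpha subunit. That exon is in capitals here, beside the same junction of Gnas-206, which lacks it.
Gnas-202: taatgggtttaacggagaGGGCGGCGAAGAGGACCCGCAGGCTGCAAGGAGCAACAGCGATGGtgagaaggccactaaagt
Gnas-206: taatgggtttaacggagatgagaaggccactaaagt
The transcript thus specifies the long form.

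The Creb1 transcript, ENSMUST00000190348 or Creb1-209, runs on the plus strand of chromosome 1 from 64532894 to 64604548, with 9 exons and 8331 bases. The authors' model is 7071 bases longer at the 3′ end than the 1260-base GENCODE entry and ends where Creb1-202 ends. Its coding sequence has 341 codons and is identical to that of Creb1-201, a further principal isoform. Compared with Creb1-202, with which it shares 8289 bases, it lacks 75 bases at the 5′ end and adds a coding exon of 42 bases. This exon is the one that marks the alpha form of CREB and is absent from the delta form. It is shown in capitals, with the same junction in Creb1-202.
Creb1-209: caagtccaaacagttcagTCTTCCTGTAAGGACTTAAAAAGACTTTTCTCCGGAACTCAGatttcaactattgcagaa
Creb1-202: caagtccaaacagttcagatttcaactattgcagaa
No base and no intron of the Creb1 model was its own: each lay in at least 1 of the other 10 annotated isoforms, and only their combination was particular to it.

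The Adcy3 transcript, ENSMUST00000124505 or Adcy3-202, runs on the plus strand of chromosome 12 from 4133104 to 4213525, with 22 exons and 4962 bases. It starts upstream of position 4133397, the nearest start site that RefSeq gives for Adcy3, and its first exon of 616 bases is missing from Adcy3-201, a principal isoform. Its coding sequence has 1144 codons, is identical to that of Adcy3-207 and differs from that of Adcy3-201 by a single codon. The 3 bases that Adcy3-201 keeps at the start of an exon, and Adcy3-202 drops by using the next splice acceptor, are in capitals.
Adcy3-201: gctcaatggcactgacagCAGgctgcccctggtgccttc
Adcy3-202: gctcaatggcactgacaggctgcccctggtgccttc
No base of the model was its own, and 1 of its 21 introns, the first, was found in no other Adcy3 isoform.

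The Rps6kb2 transcript, ENSMUST00000130469 or Rps6kb2-205, runs on the minus strand of chromosome 19 from 4156795 to 4163354, with 15 exons and 2033 bases. It carries an exon of 140 bases, at 4159566 to 4159705, that is present in none of the other 11 annotated isoforms of the gene. Reading runs into this exon and stops there after 153 codons, against 1455 coding bases in the principal isoform Rps6kb2-201. The stop codon lies in exon 6, with 9 exon junctions after it and 1057 bases from it to the last junction. The end of the coding sequence is shown with the stop codon in capitals, beside the same junction in Rps6kb2-201, where reading continues.
Rps6kb2-205: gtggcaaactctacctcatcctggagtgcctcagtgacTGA
Rps6kb2-201: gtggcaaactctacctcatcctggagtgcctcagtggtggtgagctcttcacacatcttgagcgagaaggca
The model also keeps an intron of 111 bases that Rps6kb2-201 removes. It has 2 introns of its own, those on both sides of the 140-base exon.

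**Figure D1:**
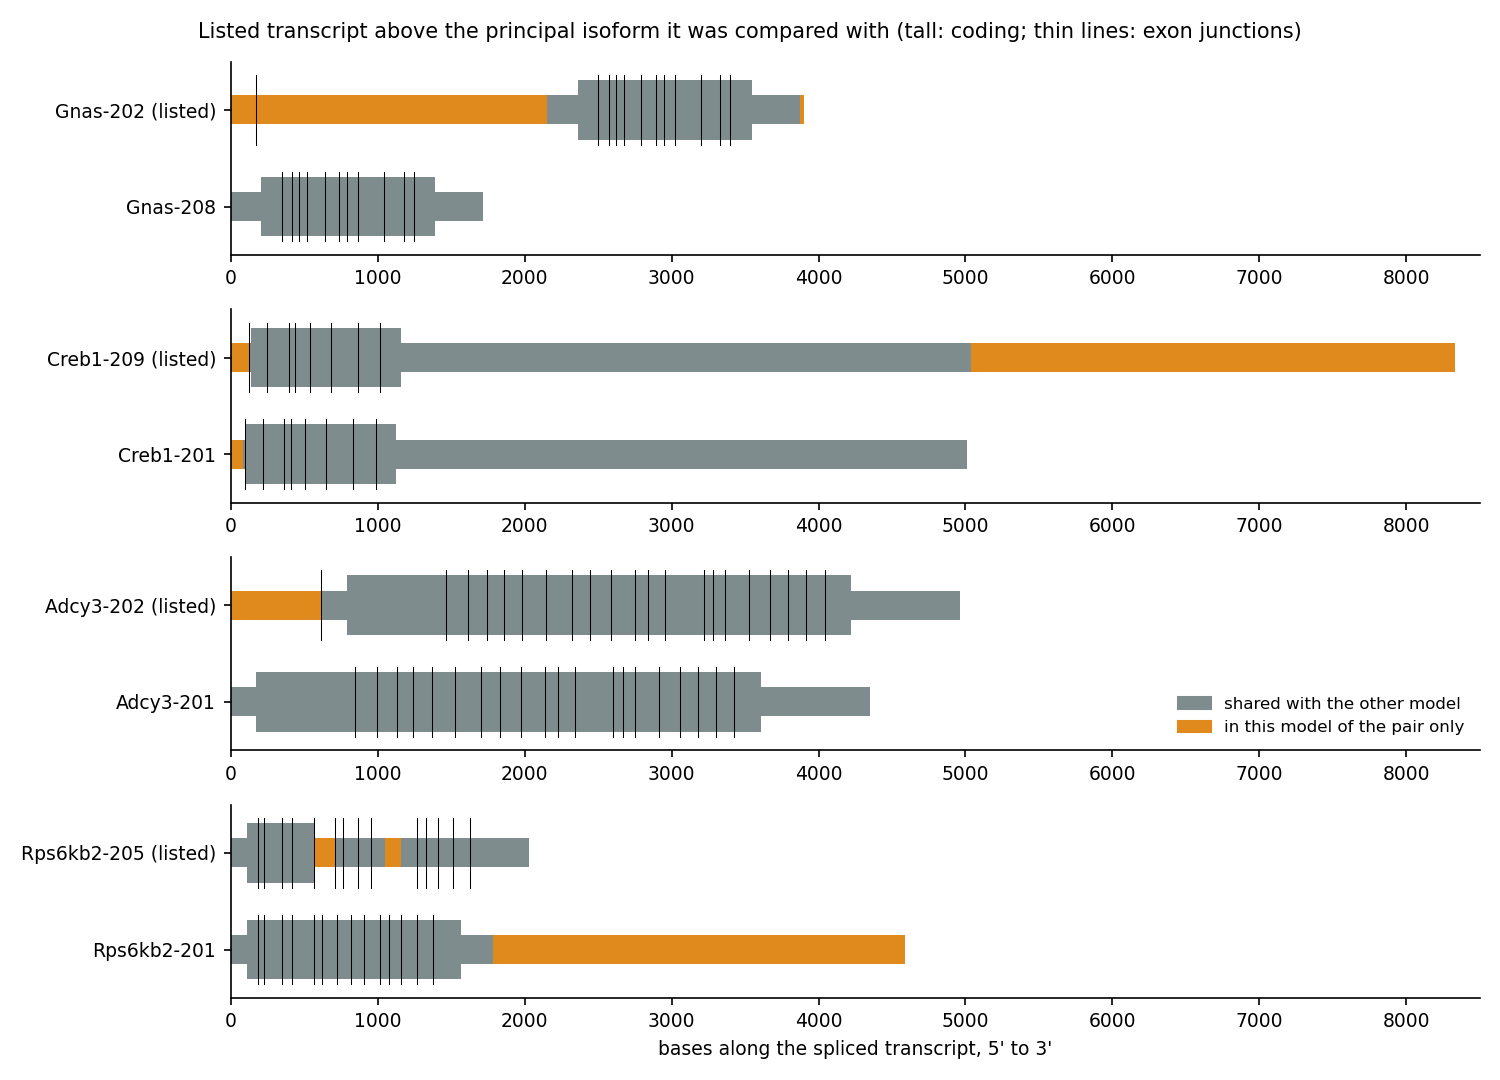
The spliced models of the 4 listed transcripts, each above a principal isoform of the same gene (Gnas-202 and Creb1-209 carry the principal tag as well), drawn in bases from the 5′ end; tall bars are coding, low bars are untranslated, thin lines are exon junctions, and orange marks bases present in that model of the pair only. The coding part of Gnas, Creb1 and Adcy3 was shared with the isoform drawn below it except for 3 bases of Adcy3-201, too few to see at this scale, while Rps6kb2-205 stops early at its added exon.

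The coding sequences of the 3 protein-coding transcripts were thus each shared with another annotated isoform. Of the 194 listed protein-coding transcripts that are not canonical, 192 had a GENCODE model and another annotated isoform. Among these 192, this held for 64. Of 407 listed transcripts with other annotated isoforms, 126 had no base of their own and 53 had neither a base nor an intron of their own, as Creb1-209. The median share of own bases was 3.77%. How reads from shared sequence were assigned to isoforms is not given in the sources used here, and its part in the counts was not tested.

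The 4 transcripts were higher in every high-fat library than in every normal-diet library, as were 423 of the 831 listed transcripts (50.9%); a further 336 (40.4%) were lower in every high-fat library. As the diet difference chose the transcripts, nothing is read from these shares. Normalized counts here are deposited counts divided by the authors' size factor of the library. In whole testis, a change in the number of cells of a type and a change in RNA per cell cannot be told apart.

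For Gnas, the normalized counts were 3127, 1339 and 876 in high-fat libraries 10, 11 and 12, against 4.25, 0.952 and 1.84 in normal-diet libraries 7, 8 and 9. The lowest high-fat library was 206-fold above the highest normal-diet library, and high-fat library 10 stood above both others of its diet. The mean was 1781 ± 1189 on the high-fat diet and 2.35 ± 1.71 on the normal diet (SD, n = 3 each), 758-fold higher, and the edgeR log2 difference was 9.51 ± 1.01 (SE). The fold was 471 without high-fat library 10 and 1274 without normal-diet library 7. The normal-diet libraries held 7 counts in all and the high-fat libraries 5175. The ratio of these sums, scaled by the size factors, was 747 with an exact Clopper-Pearson 95% interval of 362 to 1858 for counting error only.

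For Creb1, the normalized counts were 215, 245 and 144 in high-fat libraries 10, 11 and 12, against 26.6, 25.7 and 27.6 in normal-diet libraries 7, 8 and 9. The normal-diet libraries lay close together, with a coefficient of variation of 3.66%, and the high-fat libraries varied by 25.8%. The mean was 201 ± 51.9 on the high-fat diet and 26.6 ± 0.975 on the normal diet (SD, n = 3 each), 7.56-fold higher, and the edgeR log2 difference was 2.91 ± 0.38 (SE). It was the smallest difference of the 4 and had the smallest standard error. The fold stayed between 6.73 and 8.63 when any of the 6 libraries was left out.

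For Adcy3, the deposited counts were 17, 95 and 6 in high-fat libraries 10, 11 and 12, against 0 in each of normal-diet libraries 7, 8 and 9. Library 11 held most of the counts of its diet and library 12 only 6. The normalized mean on the high-fat diet was 39.7 ± 48.5 (SD, n = 3), a spread larger than the mean. Set against a floor of 3 counts per normal-diet library, this was at least 13.5-fold higher. Without high-fat library 11 it was at least 4.08-fold higher, so the size of the difference depends on that library. The edgeR estimate for a transcript at 0 in a whole diet depends on the prior count and is no bound. In total 150 of the 831 listed transcripts were at 0 in all 3 normal-diet libraries.

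For Rps6kb2, the deposited counts were 8, 83 and 113 in high-fat libraries 10, 11 and 12, against 1, 1 and 4 in normal-diet libraries 7, 8 and 9. High-fat library 10 lay only 2.39-fold above normal-diet library 9 in normalized counts, and libraries 11 and 12 stood well apart from both. The normalized mean was 63.7 ± 48.2 on the high-fat diet and 1.90 ± 1.55 on the normal diet (SD, n = 3 each), 33.5-fold higher, and the edgeR log2 difference was 4.96 ± 1.15 (SE). Without normal-diet library 9 the fold was 63.2. The scaled ratio of the summed counts, 204 on the high-fat diet and 6 on the normal diet, was 34.3 with an exact Clopper-Pearson 95% interval of 15.5 to 94.7 for counting error only.

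**Figure D2:**
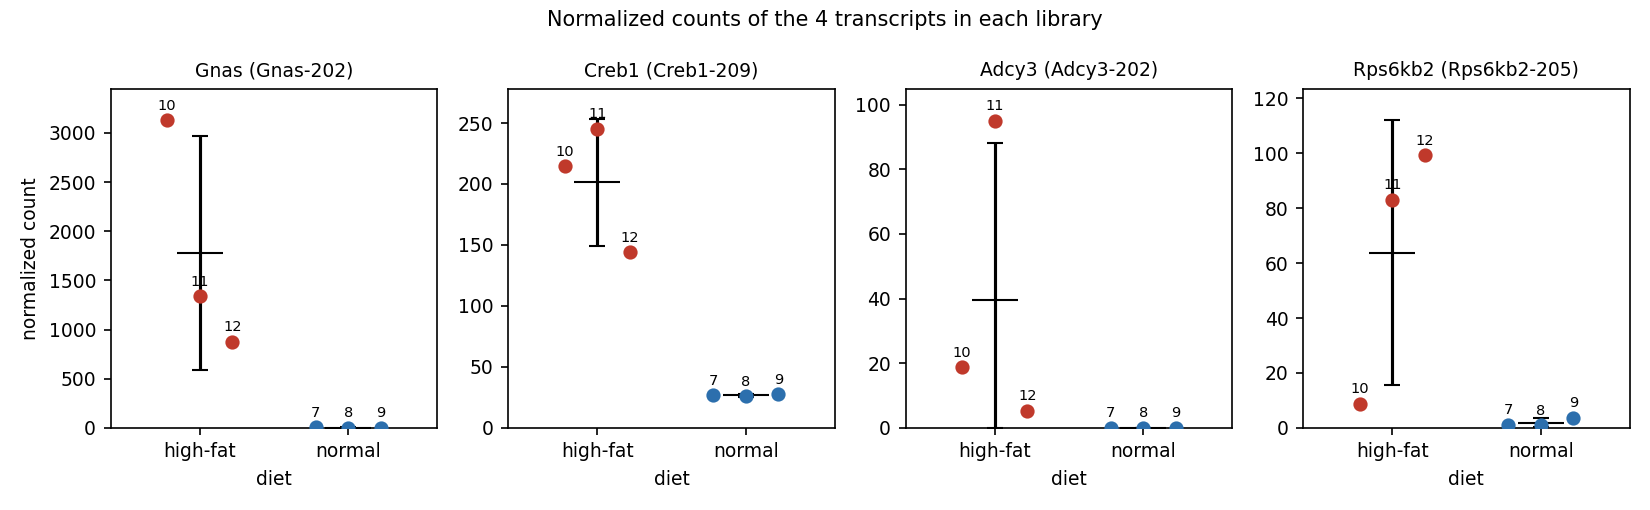
Normalized counts (vertical axis, a separate linear scale from 0 in each panel) of the 4 transcripts in each high-fat and normal-diet library; points are libraries with their numbers, and bars are the mean ± SD of 3 libraries, stopped at 0 for Adcy3 on the high-fat diet. All high-fat points lie above all normal-diet points, and the library with the highest value differs between the transcripts.

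The high-fat libraries did not rank alike for the 4 transcripts. The highest was library 10 for Gnas, library 11 for Creb1 and Adcy3, and library 12 for Rps6kb2; the lowest was library 12 for Gnas, Creb1 and Adcy3 and library 10 for Rps6kb2. The highest high-fat library exceeded the lowest by 1.70-fold for Creb1, 3.57-fold for Gnas, 11.3-fold for Rps6kb2 and 18.1-fold for Adcy3. Ranked by the coefficient of variation on the high-fat diet from the smallest, Creb1 came 114th, Gnas 296th, Rps6kb2 326th and Adcy3 436th among the 460 transcripts that were higher on that diet.

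Per kilobase of transcript, Gnas had the highest level on the high-fat diet, 456 normalized counts, followed by Rps6kb2 at 31.3, Creb1 at 24.2 and Adcy3 at 8.00. Gnas did not overlap with the others, at 225 to 801 per kilobase over the high-fat libraries. Rps6kb2 ranged from 4.33 to 48.8, Creb1 from 17.3 to 29.4 and Adcy3 from 1.06 to 19.2, so these neighbours overlapped. On the normal diet the order per kilobase was Creb1 at 3.20, Rps6kb2 at 0.935, Gnas at 0.602 and Adcy3 at 0. Rps6kb2, at 0.468 to 1.81, and Gnas, at 0.244 to 1.09, overlapped there, on 6 and 7 counts in all. Gnas thus stood 55th of the 831 listed transcripts per kilobase on the high-fat diet and 636th on the normal diet.

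Estimates of transcripts at 0 throughout a diet depend on the prior count, so sizes were compared over the 581 listed transcripts with counts on both diets. Of these, 310 were higher on the high-fat diet, with a median edgeR log2 difference of 3.28; Gnas and Rps6kb2 lay above this value and Creb1 below it. Ranked from the highest estimate among the 581, Gnas was 11th, Rps6kb2 95th and Creb1 179th. The settings compared in the plot of estimates all left the 4 transcripts higher on the high-fat diet. As the diet difference chose the transcripts, this shared direction is no test.

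**Figure D3:**
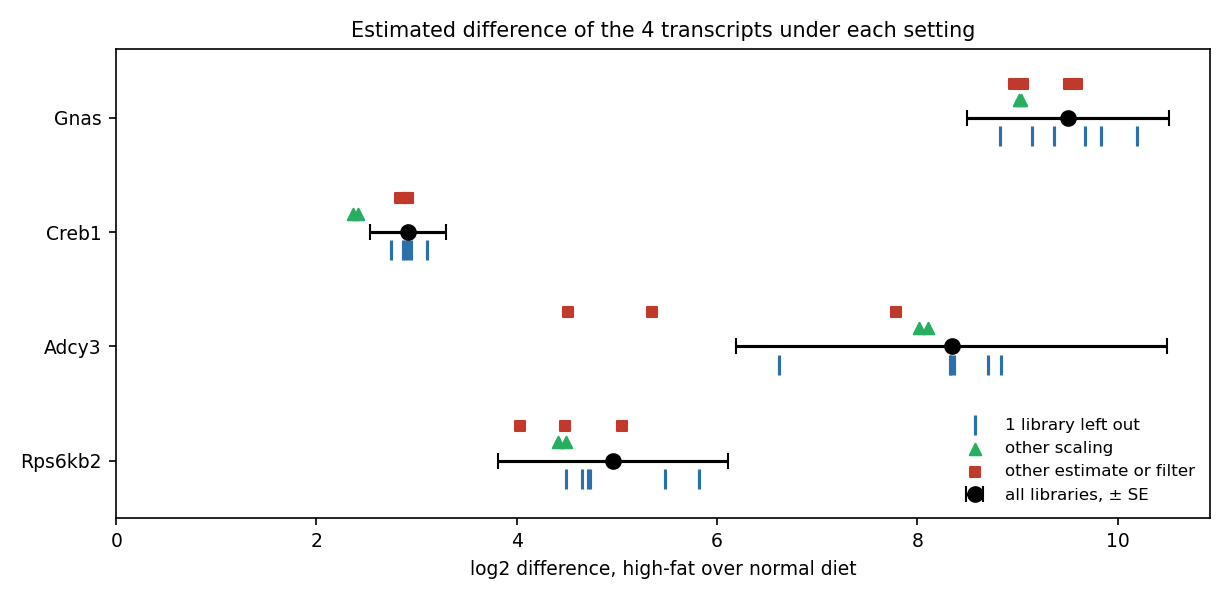
Log2 difference between the diets (horizontal axis, high-fat over normal) for each transcript, with the edgeR estimate on all libraries ± SE in black, estimates with 1 library left out in blue, with other scaling in green, and with another estimate or filter in red. All values are above 0; the estimates for Adcy3 spread most, between 4.51 and 8.83; its normal-diet counts are 0, and its value depends on the prior count or pseudocount.

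Opposite-strand genes overlapped 2 of the models. The span of Cenpo, on the opposite strand, covers 2977 bases of the Adcy3 model, and that of Gm20721 covers 1486 bases of the Gnas model. The libraries were strand-specific per the labels' protocols, but whether the counting used strand is not given in the sources used here, so the part of these genes in the counts was not tested.

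RefSeq windows of 250 bases before to 50 after a start site were found for 3 of the 4 genes, 7 windows in all. The full CREB motif TGACGTCA, read on both strands, was in 0 of the 7 and in 1.79% of all 32851 windows. Its half-site TGACG was in 3 of the 7, all of Gnas, and in 20.8% of all windows. Of these Gnas windows, those at RefSeq starts 174327749 and 174327768 overlap, and the one at 174330006 is separate. Every full motif also holds the half-site.

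The listed transcripts most like each of the 4 in level and pattern were found by the Euclidean distance between log2(normalized count + 1) values over the 6 libraries, among annotated transcripts. Creb1 was nearest to transcripts of Chn1 (distance 1.32), Zfp184 (1.43) and Ppp6r2 (1.44). Adcy3 was nearest to Zfp689 (1.07), Eml4 (1.65) and Mettl8 (1.93), all at 0 in the normal-diet libraries. Rps6kb2 was nearest to Ric1 (1.47), Tnfaip2 (1.91) and Tmem44 (2.50), and these 3, like Rps6kb2-205, are classed as targets of nonsense-mediated decay. So are the Zfp184 transcript near Creb1 and the Mettl8 transcript near Adcy3. The Ric1 transcript had 10, 110 and 69 counts in high-fat libraries 10, 11 and 12, against 2, 3 and 3 counts in normal-diet libraries 7, 8 and 9. Gnas was nearest to Prr11 (4.24), Gtf2i (4.73) and Cd2bp2 (4.95), at larger distances than the others. The Ppp6r2 and Cd2bp2 transcripts are classed as retained-intron. Among the 433 listed annotated transcripts, 44 are classed as decay targets, 25 of them higher on the high-fat diet, and 47 as retained-intron. Whether the classes of the nearest transcripts depart from these numbers was not tested.

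Of 198 further genes of the cAMP, CREB, S6 kinase, mTOR and thermogenic pathways on 11 lists, 4 (2.02%) had a listed annotated transcript, 1 with a higher and 3 with a lower level on the high-fat diet, where 55.4% of all listed transcripts were higher. Of all 21951 protein-coding genes in GENCODE M21, expressed in testis or not, 1.70% had a listed annotated transcript. Lists of cAMP phosphodiesterases, other cAMP effectors, Gs-coupled receptors, mTORC1 and the thermogenic programme held 0 listed annotated transcripts. Assembled transcripts over genes of these and the other lists are given below. Levels of transcripts outside the table were not analysed here. Within the protein kinase A list, a transcript of the inhibitor Pkig had 6, 4 and 7 counts in high-fat libraries 10, 11 and 12, against 38, 154 and 34 in normal-diet libraries 7, 8 and 9. A retained-intron transcript of the anchoring protein Akap9 averaged 66.7 ± 7.25 normalized counts on the high-fat diet and 131 ± 14.0 on the normal diet (SD, n = 3 each). Both were lower in every high-fat library than in every normal-diet library. A decay-class transcript of the phosphoinositide kinase subunit Pik3cb averaged 27.4 ± 7.18 on the high-fat diet and 2.27 ± 0.447 on the normal diet. The coding transcript ENSMUST00000177654 of Pik3cd, another subunit of this family, averaged 38.1 ± 10.2 on the high-fat diet and 1013 ± 198 on the normal diet.

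Transcripts that the authors assembled from reads lay over 6 genes of the same lists on the same strand, 7 transcripts in all, of which 4 had a higher and 3 a lower level on high-fat food. Over Crem, the CREB relative that is needed for sperm formation in mice, an 8-exon transcript had 2217, 1145 and 371 counts in high-fat libraries 10, 11 and 12, against 29, 25 and 22 in normal-diet libraries 7, 8 and 9. Its high-fat libraries ranked as those of Gnas did, with library 10 highest and library 12 lowest. This order was not particular to them. The Pik3cb transcript had it, at 32, 26 and 24 counts in libraries 10, 11 and 12. So did the Gtf2i transcript near Gnas, at 1325, 755 and 137 counts, and, after scaling, the transcript over Pde1b given below. Over Larp1, a translation regulator downstream of mTORC1, a transcript was at 0 in each high-fat library, against 872 ± 572 normalized counts on the normal diet, at least 293-fold lower. Over Adrb1, a Gs-coupled adrenergic receptor, a transcript averaged 85.4 ± 4.08 on the high-fat diet and 166 ± 15.9 on the normal diet. Over Zfp516, of the thermogenic list, a transcript averaged 356 ± 361 on the high-fat diet and 11.3 ± 1.52 on the normal diet. It had 674, 27 and 341 counts in high-fat libraries 10, 11 and 12. The transcript over Pde1b, a phosphodiesterase, overlapped a further gene and had 352, 368 and 11 counts in the high-fat libraries, against 0 in each normal-diet library, so it was at least 86.9-fold higher. The pathway lists therefore held listed transcripts of both directions, and of 2 assembled transcripts over Pik3cd and a further gene, 1 was higher, at 4584 ± 466 on the high-fat diet and 1772 ± 146 on the normal diet. The other was lower, at 51.9 ± 25.5 on the high-fat diet and 730 ± 563 on the normal diet (SD, n = 3 each).

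**Figure D4:**
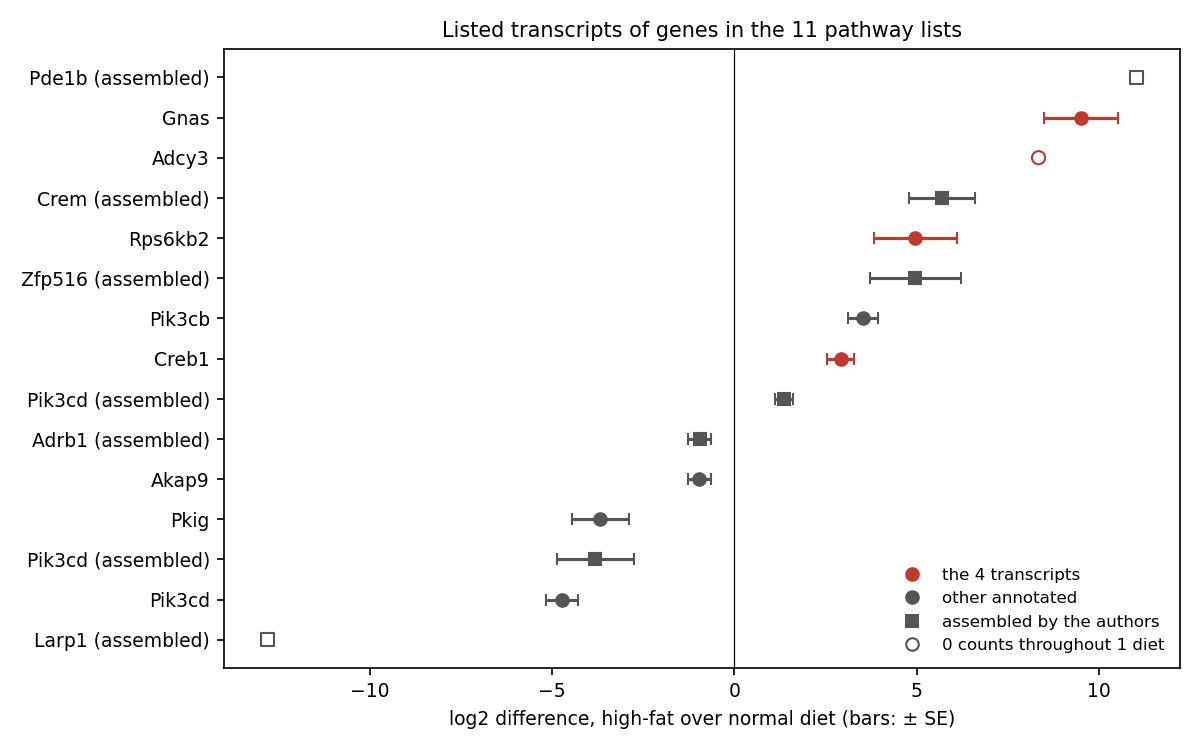
EdgeR log2 difference between the diets (horizontal axis, high-fat over normal; bars ± SE) for the listed transcripts of genes in the 11 pathway lists, the 4 transcripts in red, other annotated transcripts as grey circles and assembled transcripts as grey squares. Transcripts of both directions are present; open symbols had 0 counts throughout 1 diet and have no bar, since their fitted value depends on the prior count.

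Of the 35 gene sets in the authors' deposited tables, 23 held at least 1 of the 4 genes: Gnas was in 18, Adcy3 in 9, Creb1 in 5 and Rps6kb2 in 1. All 4 were together only in the thermogenesis pathway, as 4 of its 8 called members, with q = 0.915. Creb1 and Adcy3 were both in the set for the cellular response to nitrogen compounds and in that for organonitrogen compounds, each with q = 0.328, and Gnas and Creb1 were both in developmental growth, with q = 0.485. Among the 20 network neighbourhoods, Gnas was in 12 and Adcy3 in 6, each with q = 0.324. No set that held one of the 4 genes had a q below 0.176 in the authors' deposited tables. These sets were tested on genes called beforehand and do not test the diet.

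Markers of testis and neighbouring cell types were looked up on 11 lists with 74 genes. Annotated transcripts were listed for 5 of these genes (6.76%), against the 1.70% of all protein-coding genes, expressed in testis or not. The lists were chosen with earlier results of these data known, so nothing is read from this difference. The 5 genes were Stag3 and Mlh3 of spermatocytes, Hsd3b6 of Leydig cells, and Sparc and Pdgfrb of peritubular cells. Of their 7 transcripts, 3 were higher and 4 lower with high-fat food, where 55.4% of all listed transcripts were higher. Sparc was at 7752 ± 1174 normalized counts on the high-fat diet and 2991 ± 658 on the normal diet, and a retained-intron transcript of Stag3 was at 2291 ± 352 on the high-fat diet and 4458 ± 204 on the normal diet (SD, n = 3 each). Transcripts of the same lists differed in direction. Mlh3 was at 67.3 ± 30.8 on the high-fat diet and 1.27 ± 2.20 on the normal diet, and a coding transcript of Stag3 at 11.2 ± 6.37 on the high-fat diet and 217 ± 169 on the normal diet. The Pdgfrb transcript ENSMUST00000025522 was at 293 ± 28.8 on the high-fat diet and 0 in each normal-diet library, and ENSMUST00000115274 at 2.63 ± 4.56 on the high-fat diet and 293 ± 52.1 on the normal diet. A transcript of Hsd3b6, a steroid-making enzyme, had 15, 33 and 5 counts in high-fat libraries 10, 11 and 12, against 1590, 1722 and 8 in normal-diet libraries 7, 8 and 9, so the diets overlapped at normal-diet library 9. Lists of spermatogonia, spermatids, Sertoli cells, adipocytes, epididymis, macrophages, blood and endothelium held 0 listed annotated transcripts. Summed levels of these lists cannot be given from called transcripts alone, and the part of cell types in the values of the 4 transcripts was not tested.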

How the data were processed

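Testis RNA-seq libraries were made by the dUTP method from Trizol extracts, per the labels' protocols. Per the submitters' processing notes, Trimmomatic, HISAT2, StringTie and DESeq were used with GRCm38; no tool version is given there. The authors deposited whole-number counts per transcript and library, taken here as estimated counts because StringTie is named; how they were made is not given in the sources used here. They also deposited scaled counts rounded to whole numbers (a score), a mean scaled signal over all libraries, a fold change (ratio), a log2 fold change, p-values and, per gene set, p-values and q-values.

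Size factors were recovered as count over scaled count at counts of at least 5000 and lay between 0.908 and 1.14. They gave each deposited scaled count to within 1. The number of transcripts tested by the authors, 95751, was derived from adjusted p, p and rank; 730 lines gave it to within 0.05 percent. The estimates came from edgeR 4.0.16 in R 4.3.3 (glmQLFit on all 831 transcripts, recovered size factors, no filter on low counts). The code was run on simulated data. The simulated folds and spread between libraries were smaller than those of Gnas, Adcy3 and Rps6kb2, so the simulation does not check their estimates. The standard error is the log2 difference over the square root of F. DESeq2 1.42.0 was an alternative. No p-value was computed, because the transcripts were listed for this contrast. The members and gene lists were chosen with earlier results of these data known. Named were the 4 transcripts, the 3 nearest annotated transcripts of each, and listed transcripts of the pathway and marker lists. Sets holding a member were given by name or in counts, without a list of their other genes. Every column of library values was used. Floors and intervals cover counting error only. Sequences came from GENCODE M21 transcripts and RefSeq windows; protein sequences were not used here.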

Additional observations from a re-analysis of the deposited data

How the results depend on the processing

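All 46 alternative values of the 4 transcripts were higher on the high-fat diet, and 41 of them moved by less than the spread between replicates. As the diet difference chose the transcripts and their libraries did not overlap between the diets, the shared direction is no test. Leaving out a library could not reverse it. TMM and DESeq2 size factors, which assume that most transcripts do not differ, lowered the estimates of all listed transcripts by a median of 0.48 and 0.51 on the log2 scale. The Creb1 log2 difference was 2.42 and 2.37 with these, against 2.91. The Adcy3 log2 difference was 5.35 as a log2 ratio of means and 4.51 as a difference of mean log2 values, both with a pseudocount of 1, against 8.34; its normal-diet counts are 0. With 1 library left out, the log2 difference was between 8.82 and 10.2 for Gnas, 2.75 and 3.10 for Creb1, 6.62 and 8.83 for Adcy3, and 4.49 and 5.82 for Rps6kb2. The lowest Adcy3 value was that without high-fat library 11. Adcy3 and Rps6kb2, each with 1 high-fat library under 10 counts, were removed by filterByExpr with a minimum count of 10 and have no value under it. Each locus held 1 listed transcript, so its sum equals that transcript. The number of listed transcripts higher on the high-fat diet was 460, and 458 with either other scaling. No paired analysis was possible because the library numbers, 7 to 9 and 10 to 12, are not shared between the diets. With fewer than 10 counts in all on the normal diet, the folds of Gnas and Rps6kb2 are limited by depth.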
